A study of Homo sapiens with 22 samples.

Results

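In THP-1 cells carrying a control hairpin, the places on DNA held by RNA polymerase II (Pol II) were compared with those carrying trimethylated lysine 4 of histone H3 (H3K4me3). The members are the 33370 Pol II and 21953 H3K4me3 peaks of the control cells on chromosomes 1 to 22, X and Y, 55323 of the 119724 regions in the 6 peak lists of the series. They come from 4 of the 22 samples. A protein-coding gene was given a mark when a peak lay within 1 kb of either outer end of the gene, and peaks were called shared when they overlapped by at least 1 bp. By that rule 14000 of 20037 protein-coding genes had at least 1 mark. THP-1 is a human line from an acute monocytic leukaemia and carries a fusion of KMT2A, an H3K4 methyltransferase, with MLLT3.

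The Pol II group is 2 ChIP samples of cells infected with a lentivirus for the sh-control hairpin, and the H3K4me3 group is 2 ChIP samples of the same cells, while the series text calls the control cells untreated. The labels do not say which form of Pol II the antibody recognises. Cells infected with the sh-QKI5 hairpin, with 2 Pol II and 2 H3K4me3 ChIP samples, and 2 CLIP samples of QKI5 in control cells served as readouts that the rule did not use. CLIP recovers the RNA sites crosslinked to a protein, here QKI5, the nuclear form of an RNA-binding protein that acts in splicing.

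Pol II is loaded at a promoter by general transcription factors, often pauses a short way into the gene, and is released into elongation by the kinase CDK9. It also slows after the poly(A) site, where transcripts are cut and polymerase leaves DNA. H3K4me3 is laid down around promoters by SETD1 and KMT2 complexes, many of which are drawn to unmethylated CG-rich DNA, and it lies on nucleosomes flanking the start. The mark can also sit at CG-rich promoters with little transcription, such as those of developmental regulators in cells of another lineage.

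Start windows of some genes from 3 classes are printed as examples. Each runs from 250 bases before to 50 bases after an annotated start and was taken from RefSeq on GRCh38.p14. CG dinucleotides are in capitals. ARHGDIA had both marks. ALOXE3, an epidermal lipoxygenase gene, and HES7, a transcription factor of the segmentation clock, had H3K4me3 alone. DNASE1L2, a DNase gene, had Pol II alone. The ARHGDIA window (chr17:81871288-81871587, minus strand) holds 39 CG, the ALOXE3 window (chr17:8118867-8119166, minus strand) 19, the HES7 window (chr17:8124057-8124356, minus strand) 16 and the DNASE1L2 window (chr16:2236194-2236493, plus strand) 12.
ARHGDIA: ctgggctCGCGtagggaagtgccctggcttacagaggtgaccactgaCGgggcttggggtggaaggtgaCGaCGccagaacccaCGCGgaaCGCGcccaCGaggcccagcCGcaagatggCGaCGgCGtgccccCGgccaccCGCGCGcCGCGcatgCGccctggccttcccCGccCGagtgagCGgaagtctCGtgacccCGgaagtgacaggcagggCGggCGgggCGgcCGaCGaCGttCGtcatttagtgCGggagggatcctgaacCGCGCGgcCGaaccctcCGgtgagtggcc
ALOXE3: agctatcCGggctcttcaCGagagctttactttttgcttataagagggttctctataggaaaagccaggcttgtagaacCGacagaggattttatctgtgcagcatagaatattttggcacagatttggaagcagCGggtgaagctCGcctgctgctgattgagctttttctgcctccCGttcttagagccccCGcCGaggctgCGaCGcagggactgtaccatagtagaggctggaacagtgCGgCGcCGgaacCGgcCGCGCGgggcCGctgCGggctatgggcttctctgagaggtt
HES7: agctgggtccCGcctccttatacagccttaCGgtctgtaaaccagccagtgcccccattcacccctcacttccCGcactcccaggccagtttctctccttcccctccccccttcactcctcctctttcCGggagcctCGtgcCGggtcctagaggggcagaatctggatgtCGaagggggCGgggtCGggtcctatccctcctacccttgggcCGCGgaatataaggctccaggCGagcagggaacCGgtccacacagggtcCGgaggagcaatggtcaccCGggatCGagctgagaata
DNASE1L2: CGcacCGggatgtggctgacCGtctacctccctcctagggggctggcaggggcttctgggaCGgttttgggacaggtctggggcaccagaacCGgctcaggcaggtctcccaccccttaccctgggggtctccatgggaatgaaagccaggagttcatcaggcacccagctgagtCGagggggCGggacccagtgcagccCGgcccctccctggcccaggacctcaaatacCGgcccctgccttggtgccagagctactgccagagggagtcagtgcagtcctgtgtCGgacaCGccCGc
A peak of each mark covered the ARHGDIA window, H3K4me3 alone covered those of ALOXE3 and HES7, and Pol II alone covered that of DNASE1L2. The ARHGDIA window also contains CCGGAAG, the core bound by ETS factors, GCGCATGC, bound by NRF1, and GGGCGG, bound by SP1, each read on both strands. The HES7 and DNASE1L2 windows contain GGGCGG. The windows of LOC124905135, with both marks and 20 CG, and of SLC4A5, with Pol II alone and 2 CG, were drawn by the same rule and are not printed. Neither holds CCGGAAG or GGGCGG, and no peak of either mark covered the SLC4A5 window. ALOXE3 and HES7 share their H3K4me3 peak, and DNASE1L2 shares its Pol II peak with its neighbours E4F1 and ECI1.

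The 2 ChIP lists pool both replicates, so no value has a replicate check, no p-value can be given, and reads per sample were not analysed here. Shares carry exact Clopper-Pearson 95% intervals, which cover counting error only, since neighbouring peaks are not independent. The lists give positions and no heights, so width is the only size of a peak. In a bulk list, fewer cells with a mark and less of it per cell cannot be told apart. Of 12 monocytic marker genes 9 had both marks, among them SPI1, CEBPA, CD14 and LYZ, while CSF1R, CYBB and FCGR1A had neither at a gene end. The T cell markers CD3D, CD3E, CD3G and CD2 and the epithelial markers EPCAM, CDH1, KRT5 and KRT14 had neither mark.

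Pol II peaks lay on H3K4me3 less often than the reverse. Of Pol II peaks 15809, 47.4% (46.8 to 47.9), overlapped an H3K4me3 peak, and of H3K4me3 peaks 14406, 65.6% (65.0 to 66.3), overlapped a Pol II peak. Pol II peaks on H3K4me3 had a median width of 1672 bp, and those without it 631 bp. H3K4me3 peaks on Pol II had a median of 3408 bp, and those without Pol II 1034 bp. Of the Pol II peaks without H3K4me3, 46.3% had the narrowest width that the lists hold, against 10.02% of those on H3K4me3. A median of 10323 bp separated a lone Pol II peak from the nearest H3K4me3 peak, and 35498 bp a lone H3K4me3 peak from the nearest Pol II peak. Peaks that just missed each other were few, since 7.06% of lone Pol II and 3.90% of lone H3K4me3 peaks had the other mark within 1 kb.

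The wider an H3K4me3 peak, the more often it held Pol II. Among H3K4me3 peaks of the narrowest width the share was 22.6% (20.9 to 24.5), and among those over 4000 bp it was 95.6% (95.1 to 96.2). For Pol II the share on H3K4me3 was 16.3% (15.6 to 17.0) at the narrowest width, 79.9% (78.8 to 80.9) over 2000 and up to 4000 bp, and 74.8% (73.1 to 76.5) above 4000 bp. Wide H3K4me3 peaks without Pol II were therefore scarce, 238 of 5463 above 4000 bp, while 666 of 2643 Pol II peaks of that width had no H3K4me3.

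**Figure D1:**
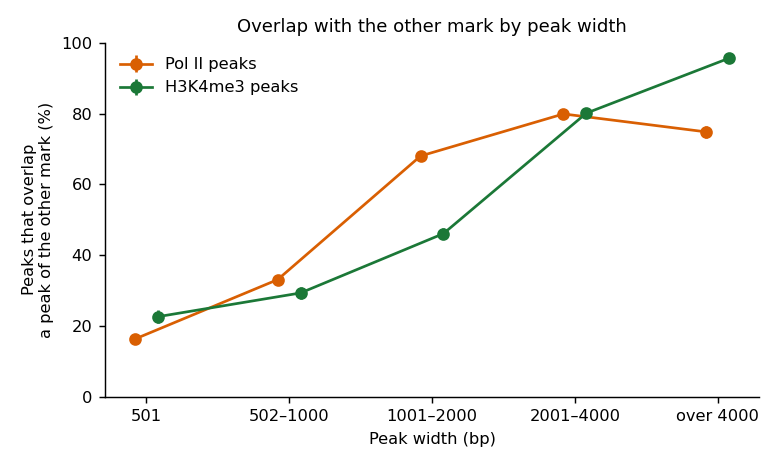
Share of Pol II and of H3K4me3 peaks that overlap a peak of the other mark (vertical axis, percent) by peak width (horizontal axis, bp), with exact 95% intervals. The H3K4me3 line climbs to 95.6% in the widest class, and the Pol II line stops at 79.9% and then 74.8%.

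Where the marks met, Pol II mostly lay inside the H3K4me3 domain. Of 16119 overlapping pairs, 62.7% had the Pol II peak wholly inside the H3K4me3 peak, 7.62% had the H3K4me3 peak inside the Pol II peak, and 29.7% had crossing edges. In the 12370 pairs with a single peak of each mark, median widths were 1694 bp for Pol II and 3224 bp for H3K4me3, and the Pol II peak had a median of 0.592 of the H3K4me3 width (quartiles 0.411 and 0.873). Most H3K4me3 peaks with Pol II, 89.4%, held 1 Pol II peak. The most held by 1 domain was 6, at chromosome 6, 152973072 to 152986809 (GRCh38.p5). Shared bases summed to 31.2 Mb, 55.0% of all Pol II bases and 49.6% of all H3K4me3 bases.

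Around starts both domains leaned into the gene, H3K4me3 more than Pol II. Among 5307 genes with 1 annotated start and no other protein-coding gene within 5 kb, 2350 had both marks over the start itself. Pol II reached a median of 761 bp upstream and 1016 bp downstream, and H3K4me3 1172 bp upstream and 2586 bp downstream. The Pol II peak reached further downstream than upstream at 66.2% of the starts (64.2 to 68.1), and the H3K4me3 peak at 91.3% (90.1 to 92.4). Pol II passed the downstream edge of H3K4me3 at 6.85% of the starts and the upstream edge at 20.5%. At 2000 bp into the gene, Pol II still covered 19.9% and H3K4me3 74.0% of the isolated genes with both marks.

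**Figure D2:**
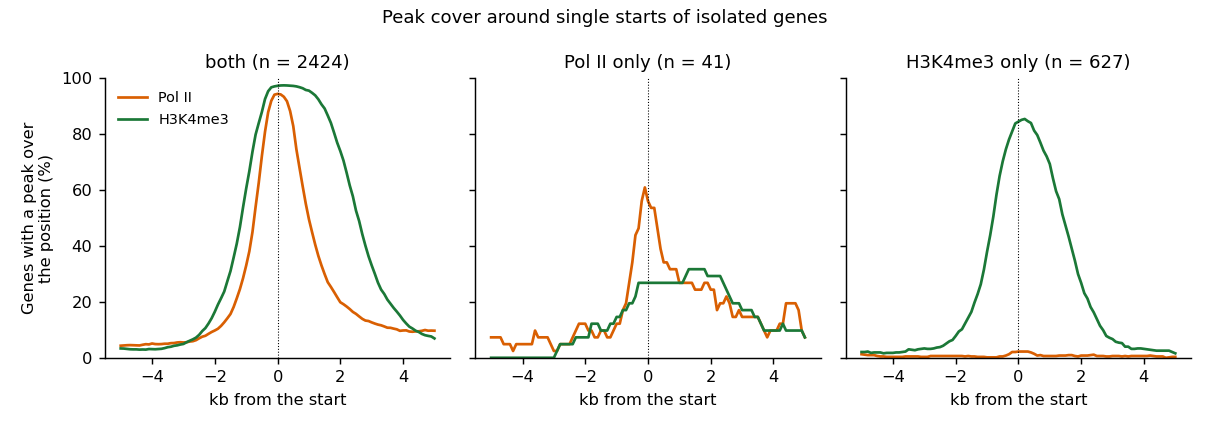
Share of isolated genes with 1 annotated start that have a Pol II or an H3K4me3 peak over each position (vertical axis, percent) from 5 kb upstream to 5 kb downstream of the start (horizontal axis, kb), for genes with both marks, Pol II alone or H3K4me3 alone. With both marks, Pol II peaks over the start at 94.5% and H3K4me3 forms a broader block shifted into the gene.

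The lone peaks of each mark lay at opposite places in genes. Pol II peaks on H3K4me3 were at a protein-coding gene end in 61.9% of cases and inside such a gene in 23.5%. For Pol II peaks without H3K4me3 these shares were 16.4% and 59.3%. H3K4me3 peaks were at a gene end in 67.2% of cases with Pol II and in 27.5% without it. Strand was known for the genes behind 2422 lone Pol II peaks at gene ends. Of these, 89.0% (87.7 to 90.2) were at a 3′ end and at no 5′ end. That place held 4.99% (4.53 to 5.48) of the Pol II peaks on H3K4me3, and 6.76% (5.58 to 8.12) of the lone H3K4me3 peaks.

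Inside genes the same order appeared. Among lone Pol II peaks lying in 1 protein-coding gene of known strand, 13.9% (13.2 to 14.7) were in the first of 5 equal parts of the gene and 25.3% (24.4 to 26.3) in the last part. Pol II peaks on H3K4me3 went the other way, with 38.5% (36.8 to 40.3) in the first and 7.18% (6.29 to 8.16) in the last part. Lone H3K4me3 peaks had 31.9% in the first and 9.67% in the last part. The gene around a lone Pol II peak had both marks at its ends in 88.5% of cases, and the gene around a Pol II peak on H3K4me3 in 72.4%. For H3K4me3 peaks these shares were 61.6% without Pol II and 64.5% with it, against 56.9% of all protein-coding genes. The units differ, since the shares count peaks, so a long gene with many peaks counts many times, while the 56.9% counts each gene once.

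**Figure D3:**
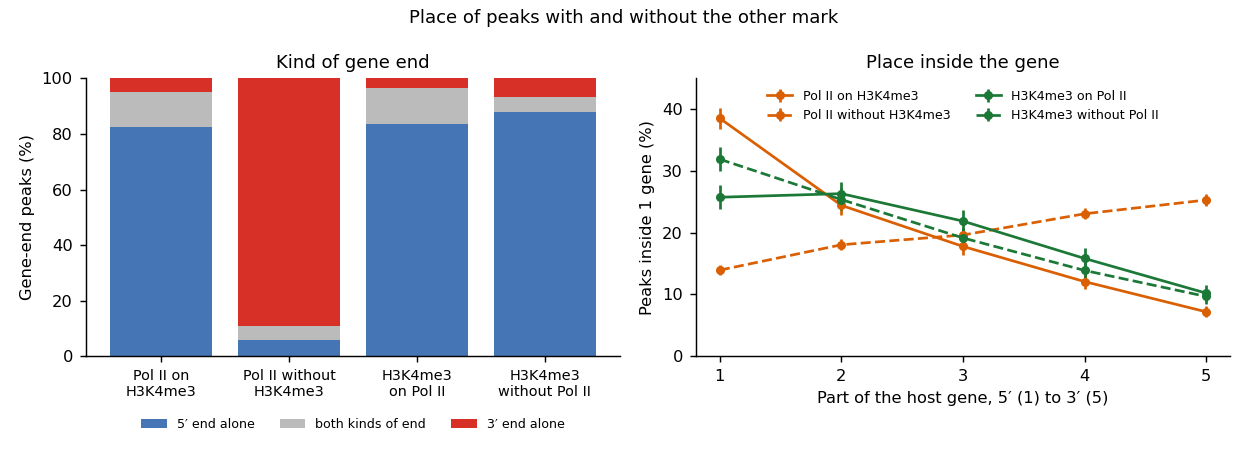
Left, share of gene-end peaks (vertical axis, percent) at a 5′ end alone, a 3′ end alone or both kinds of end, for each list with and without the other mark. Right, share of peaks inside 1 protein-coding gene (vertical axis, percent) by place along the gene, cut into 5 equal parts from 5′ to 3′ (horizontal axis), with exact 95% intervals. Pol II without H3K4me3 is the class at 3′ ends, 89.0%, and the class whose share is larger toward the 3′ side, up to 25.3%.

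Some long genes held many lone Pol II peaks. ATP8B4, a phospholipid flippase gene, held 47 over 323.6 kb, and DOCK8, an exchange factor needed for leukocyte migration, 43 over 254.0 kb. LYST, a regulator of lysosome-related organelles, also held 43, over 222.7 kb. MYH9, a non-muscle myosin heavy chain, held 27 over 106.7 kb, and the isoleucine tRNA synthetase gene IARS1 held 22 over 83.5 kb, or 26.4 per 100 kb. RUNX1, a master regulator of blood formation, held 20. These genes were picked after their values were seen, by their number of lone peaks.

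The widest lone Pol II peak, 22548 bp, lay inside FRY on chromosome 13 at 32039877 to 32062424. AMD1, the S-adenosylmethionine decarboxylase of polyamine synthesis, had one of 17188 bp, 10468 bp from any H3K4me3. EIF2S2, a subunit of the initiation factor that brings the first tRNA, had one of 17034 bp, and CDK6, a cell cycle kinase, one of 16376 bp inside the gene, 39453 bp from H3K4me3. All the 10 widest lone Pol II peaks were met by a Pol II peak in knockdown cells, as were 649 of the 666 lone Pol II peaks over 4000 bp.

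Both marks were found together at most marked genes. Of the 20037 protein-coding genes 11395, or 56.9%, had both marks, 539, or 2.69%, Pol II only, 2066, or 10.3%, H3K4me3 only and 6037, or 30.1%, neither. Pol II in all was at 59.6% of the genes and H3K4me3 at 67.2%. Among the 9401 genes with both marks and known strand, 96.3% (95.9 to 96.7) had both at the 5′ end. Pol II was also at the 3′ end of 36.2% of them, and H3K4me3 of 14.1%. Median gene lengths were 28459 bp with both marks, 13785 bp with Pol II only, 42914 bp with H3K4me3 only and 14064 bp with neither. Other gene types followed with lower shares, since both marks were at 18.1% of lncRNA genes, 15.5% of snoRNA genes and 13.6% of miRNA genes, all of which can lie inside or beside protein-coding genes.

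**Figure D4:**
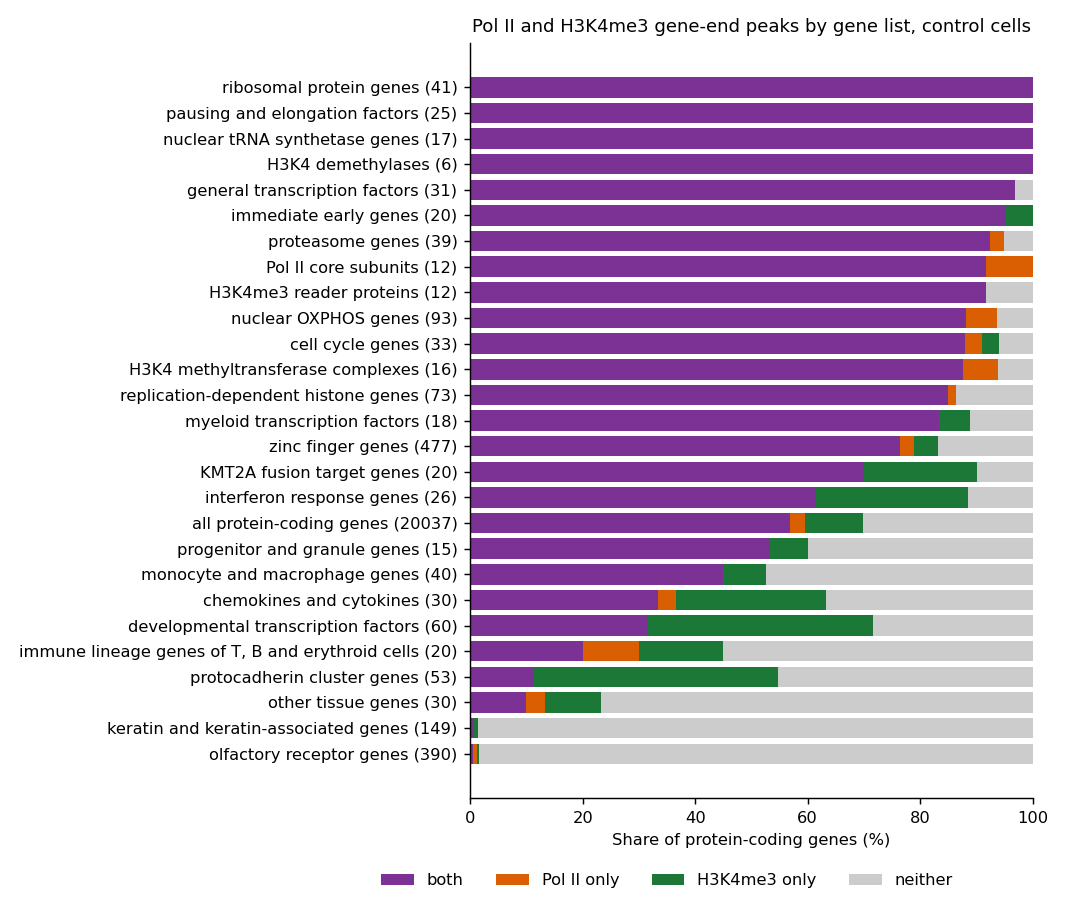
Share of the genes of each list (horizontal axis, percent; number of genes in brackets) with gene-end peaks of both marks, Pol II alone, H3K4me3 alone or neither. Ribosomal protein genes and elongation factors stand at 100% both, and protocadherin and developmental transcription factor genes have the longest H3K4me3-only bars.

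The machinery of transcription and of the mark itself was covered by both marks. All 25 pausing and elongation factor genes, 30 of 31 general transcription factor genes, 11 of 12 Pol II core subunit genes, 14 of 16 genes of H3K4 methyltransferase complexes and all 6 H3K4 demethylase genes had both, against 56.9% of all genes. Here and below, the width given for a mark of a gene is that of its widest peak at either end. The Pol II and H3K4me3 widths of a gene can therefore come from different places. POLR2A, the catalytic subunit, had a Pol II peak of 3068 bp and an H3K4me3 peak of 4610 bp. SUPT4H1, a subunit of the pausing factor DSIF, had the widest gene-end Pol II peak of its list, 24897 bp, and an H3K4me3 peak of 16997 bp. The Pol II peak runs from 58324245 to 58349141 on chromosome 17. SUPT4H1 had both marks at both ends, and which end these wide peaks touch is not resolved here, so they may not mark its start. KDM5B, a demethylase of H3K4me3, had a Pol II peak of 3444 bp and an H3K4me3 peak of 7388 bp. The subunit gene POLR2J, with 2253 bp of Pol II at 3875 bp from H3K4me3, and the methyltransferase gene SETD1B, with 949 bp of Pol II at 4932 bp from H3K4me3, had Pol II alone at their outer ends, and both were Pol II alone in knockdown cells too. Strand was not known for either gene. It was therefore not read whether Pol II lay at the 5′ or the 3′ end, or whether an inner start had H3K4me3.

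Growth genes mostly carried both marks, and Pol II was wide at ribosomal protein and tRNA synthetase genes. All 41 ribosomal protein genes listed had both marks, against 56.9% of all genes. So did all 17 cytoplasmic tRNA synthetase genes listed, which are those with symbols ending in ARS1 and not the whole family. Both marks were also at 36 of 39 proteasome genes and 82 of 93 nuclear genes of oxidative phosphorylation. Ribosomal protein genes had median widths of 8919 bp for Pol II and 5743 bp for H3K4me3, against 2302 and 4121 bp over all 11395 genes with both marks. Median Pol II widths were 4661 bp at tRNA synthetase genes, 2476 bp at proteasome genes and 2528 bp at oxidative phosphorylation genes. The Pol II peak was the wider at 35 of the 41 ribosomal protein genes, or 85.4%, against 17.6% of all genes with both marks. The peaks compared need not overlap, and at RPL6 and RPL9 they did not. RPL32, of the large ribosomal subunit, had 13669 bp of Pol II and 5683 bp of H3K4me3. Of the tRNA synthetase genes, GARS1 had 27669 bp of Pol II and 6907 bp of H3K4me3, and AARS1 had 23024 and 5288 bp.

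Immediate early genes, which respond to stimuli within minutes of signalling, also had wide Pol II. Of 20, 19 had both marks, against 56.9% of all genes, and Pol II was the wider at 12 of them, with medians of 8329 bp for Pol II and 5451 bp for H3K4me3. At FOSL2 and EGR3, which are among the 12, the peaks compared did not overlap. ZFP36, which encodes a protein that promotes decay of inflammatory mRNAs, had 17873 bp of Pol II and 11167 bp of H3K4me3. MCL1, a survival factor of the BCL2 family, had 16706 and 6637 bp, and JUNB and FOS, parts of the AP-1 factor, had 15066 and 7312 bp, and 10234 and 7470 bp. ATF3, a stress-response factor, was the exception with H3K4me3 alone at its outer ends, 1409 bp. That peak overlaps a Pol II peak just over 1 kb from the gene's end, Pol II was also within 1 kb of an annotated start inside the gene, and ATF3 had both marks in knockdown cells.

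Inflammatory genes were divided. Of 30 chemokine and cytokine genes 10 had both marks, 8 H3K4me3 only, 1 Pol II only and 11 neither, against 56.9%, 10.3%, 2.69% and 30.1% of all genes. TNF had an H3K4me3 peak of 1742 bp at its 5′ end (31575517 to 31577258 on chromosome 6), which overlaps a Pol II peak. Its widest gene-end Pol II peak, 11697 bp, is a different one that starts downstream of that H3K4me3 peak (31577828 to 31589524). CCL5 had 12880 bp of Pol II and 1983 bp of H3K4me3, and CCL3, a chemokine of macrophages, 2327 and 1101 bp. The neutrophil attractants CXCL1, CXCL3 and CXCL8 had H3K4me3 peaks of 2225, 2427 and 1459 bp and no Pol II, and CCL2, CXCL16, IL12B, LIF and, with a peak at its 3′ end, CCL20 were also of this class. In knockdown cells CXCL3, CXCL16 and LIF had both marks, and the others again had H3K4me3 only. IL1B, a fever cytokine, had Pol II alone in a peak of the narrowest width at its 5′ end, 70766 bp from H3K4me3. Of 26 interferon response genes 16 had both marks, 61.5% against 56.9% of all genes, and 7 H3K4me3 only, 26.9% against 10.3%. The 7 were IFI44, IFIT1, IFIT3, IFIT5, IFITM1, OAS3 and OASL, antiviral genes, of which IFIT5, IFITM1, OAS3 and OASL had both marks in knockdown cells.

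Targets of KMT2A fusions held some of the widest domains. HOXA9 and HOXA10, homeobox genes of blood progenitors, shared a Pol II peak of 41853 bp on chromosome 7 (27160774 to 27202626) inside an H3K4me3 domain of 44507 bp, the widest H3K4me3 peak in control cells. ZEB2, a transcription factor of monocyte development, had 42409 bp of Pol II and 22195 bp of H3K4me3, and CDK6 had 23734 and 15724 bp at its 5′ end. Of 20 known targets of KMT2A fusions 14 had both marks, 70.0% against 56.9% of all genes. MEIS1, a homeobox partner of HOXA9, had an H3K4me3 peak of 3108 bp and no Pol II in either control or knockdown cells, and EYA1 also had H3K4me3 alone, 188295 bp from Pol II. HOXA3 and HOXA6 had H3K4me3 alone at their outer ends, but their shared peak of 3746 bp overlaps a Pol II peak, and HOXA3 had Pol II within 1 kb of an annotated start inside the gene. In knockdown cells HOXA3 had both marks and HOXA6 neither. MEF2C was without a mark at its outer ends, although both lay within 1 kb of an annotated start inside the gene.

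Monocyte genes were less uniform than monocyte regulators. Of 18 myeloid transcription factor genes 15 had both marks, against 56.9% of all genes. GFI1, a transcriptional repressor needed for granulocyte development, had 20947 bp of Pol II and 15973 bp of H3K4me3, and CEBPA had 12256 and 8077 bp. Of 40 monocyte and macrophage genes 18 had both marks and 19 neither, against 56.9% and 30.1% of all genes. VSIG4, a complement receptor, had 13465 bp of Pol II and 8335 bp of H3K4me3, both at its 3′ end and away from its annotated starts, and had Pol II only in knockdown cells. CD14, the endotoxin co-receptor, had a Pol II peak of the narrowest width and 1684 bp of H3K4me3, and lysozyme (LYZ) had 880 and 3357 bp. CD300A and LY86 had H3K4me3 alone, and VCAN had it alone at its ends in a peak of 5545 bp that overlaps a Pol II peak. In knockdown cells CD300A had both marks, and LY86 and VCAN again H3K4me3 only. The granule protease genes AZU1, PRTN3 and ELANE, neighbours on chromosome 19, had Pol II peaks of 8298, 7981 and 6210 bp with H3K4me3 peaks of 18486, 7329 and 4468 bp, while MPO, the peroxidase of the same granules, had neither.

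The other gene lists spread between these extremes, beside 56.9% with both marks, 2.69% with Pol II only and 10.3% with H3K4me3 only over all genes. Of 33 cell cycle genes 29 had both marks, with MCM7 of the replicative helicase at 15152 bp of Pol II and 5008 bp of H3K4me3, while CCND2, a D-type cyclin, had 4906 bp of H3K4me3 and no Pol II. Of 73 replication-dependent histone genes 62 had both marks through 34 separate Pol II peaks, and H4C7 had Pol II only, in a peak that overlaps H3K4me3 further out. Of 477 zinc finger genes 364 had both, 12 Pol II only and 21 H3K4me3 only, and of 12 genes for readers of H3K4me3 11 had both. Of 15 progenitor and granule genes 8 had both and MS4A3 H3K4me3 only, and among myeloid regulators ERG had H3K4me3 only. In knockdown cells MS4A3 and ERG had both marks. Of 20 genes of T, B and erythroid cells 4 had both marks (CD4, CD79A, EBF1 and TAL1), and CD8A, GATA3 and PAX5 had H3K4me3 only. PAX5 had both marks in knockdown cells. Both marks of CD79A lay at its 3′ end, and it had H3K4me3 only in knockdown cells. KLF1 was among those with Pol II only, at its 3′ end, in a peak that overlaps H3K4me3 further out. Of 30 genes of other tissues 3 had both (APOA1, SFTPC and SYN1), COL1A1, SLC17A7 and SNAP25 had H3K4me3 only, MYOG had Pol II only, at its 3′ end, and 23 had neither. SLC17A7 and SNAP25 had both marks in knockdown cells. The marks of SYN1 lay at opposite ends, Pol II at the 3′ end and H3K4me3 at the 5′ end, 36443 bp from the nearest Pol II.

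H3K4me3 without Pol II was found at regulators of other lineages. Of 60 developmental transcription factor genes 24 had H3K4me3 only, against 10.3% of all genes, 19 had both marks and 17 neither. PAX6, an eye and brain factor, had an H3K4me3 peak of 8697 bp on chromosome 11 (31809236 to 31817932), 272448 bp from the nearest Pol II peak. NEUROG2, EN1, SIX2 and LHX1, factors of nervous system and kidney development, had 5050, 4991, 4328 and 4165 bp of H3K4me3 and no Pol II. In knockdown cells SIX2 had both marks, and NEUROG2, EN1 and LHX1 again H3K4me3 only. FOXC2 and EMX2 were in the H3K4me3-only class of control cells with peaks of the narrowest width, and FOXC2 had neither mark in knockdown cells. At the 19 genes with both marks, Pol II had a median of 1599 bp and H3K4me3 of 4952 bp, and Pol II was the wider at 1 of them.

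The 10 genes of the H3K4me3-only class with the widest peaks free of Pol II were named whatever their function. In order of width the peaks belong to ZFHX4 (11616 bp), ALOXE3 with HES7 (11359 bp), LHX4 (9166 bp), the growth factor gene FGF9 (8811 bp), PAX6, RGMB (8612 bp), LOC124902807 (8384 bp), CYP26B1, which degrades retinoic acid (7587 bp), and SALL1 (7284 bp). Pol II was between 11098 and 291941 bp away from these peaks. In knockdown cells HES7, LOC124902807 and SALL1 had both marks. ZFHX4, LHX4, PAX6 and SALL1 encode transcription factors. The ALOXE3 and HES7 peak also spans 5 tRNA genes, which are transcribed by another polymerase, Pol III. Over all 443 tRNA genes, 32.3% had both marks, 1.35% Pol II only and 27.5% H3K4me3 only, against 10.3% of protein-coding genes for H3K4me3 only. Of clustered protocadherin genes, which label single neurons, 23 of 53 had H3K4me3 only, but 15 of them through 1 peak of the narrowest width at their shared 3′ end.

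Genes with Pol II and no H3K4me3 at an end often had Pol II at the 3′ end. Among 407 such genes with known strand, Pol II was at the 5′ end of 219, or 53.8% (48.8 to 58.7), and at the 3′ end of 273, or 67.1% (62.3 to 71.6). Of these 407 genes 93, or 22.9% (18.9 to 27.2), had H3K4me3 within 1 kb of an annotated start inside the gene. CDKN1A, an inhibitor of the cell cycle, ATP5MC2 and COX7A2, of the respiratory chain and ATP synthase, and the proteasome gene PSMA6 were among them, with both marks at an inner start. The 10 widest by rule were at SLC4A5, LOC124902050, DNASE1L2, PGAM2, PLEKHG6, LOC124900389, C15orf39, SCG5, GGA2 and TNFRSF6B, with Pol II peaks between 9879 and 16870 bp. At 8 of the 10 the peak was also the widest Pol II gene-end peak of a neighbour, for example MTHFD2, a mitochondrial folate enzyme, for SLC4A5, or the stress factor gene HSF1 and DGAT1 for LOC124902050.

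A smaller set stood alone. Pol II was at the 5′ end, in a peak that was not the widest gene-end peak of another protein-coding gene, and over 5 kb from H3K4me3 at 99 genes, a filter added after the values were seen. Their median Pol II width was 785 bp, 28 of the peaks had the narrowest width, and in knockdown cells 68 of them again had Pol II at an end, 64 without H3K4me3. The widest were STPG4 (6226 bp), the potassium channel gene KCNK7 (6150 bp), NKPD1 (5158 bp), RUBCNL, a regulator of autophagy (4350 bp), and the brush border myosin gene MYO1A (4253 bp). POU2F2, a transcription factor of B cells and macrophages, was in this set with 1905 bp of Pol II, 16866 bp from H3K4me3.

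Some gene families of other tissues had neither mark. Olfactory receptor genes had neither in 384 of 390 cases and keratin and keratin-associated genes in 147 of 149. Of 4473 genes of this class with known strand, 10.2% had H3K4me3 and 6.80% Pol II near an annotated start inside the gene, CSF1R, the receptor of macrophage growth factor, with H3K4me3 and the demethylase gene PHF8 with both. CDKN2A and CDKN2B, the cell cycle inhibitors of chromosome 9, lay in a stretch of 1250 kb with no peak in the Pol II or H3K4me3 lists of control or knockdown cells (21195794 to 22446045). KDM6A, an H3K27 demethylase, lay in such a stretch of 4250 kb on chromosome X. The peak lists give no DNA copy number, so whether the DNA of these stretches is present in the cells was not tested.

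Start windows differed in CG content between the classes. Of the protein-coding genes 15842 had a window. Genes with both marks had a median of 27 CG in 300 bases, genes with Pol II only 9, genes with H3K4me3 only 24, genes with neither 5 and all genes 22. Of windows with at most 5 CG, 13.2% belonged to genes with both marks, and of those with 31 to 40 CG, 80.6%. Among the genes with H3K4me3, Pol II was present at 71.1% of those with at most 5 CG, at 89.1% of those with 21 to 30 CG, at 87.6% with 31 to 40 CG and at 85.02% with 41 or more.

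The ETS-type motif differed between genes with both marks and genes with H3K4me3 only. The motif CCGGAAG, bound by ETS factors such as GABPA, was read on both strands in 21.2% (20.4 to 22.1) of windows of genes with both marks, 4.42% (2.64 to 6.90) with Pol II only, 4.87% (3.86 to 6.06) with H3K4me3 only, 3.44% (2.93 to 4.02) with neither and 14.2% of all. At like CG content it differed too, since among windows with 21 to 30 CG it was in 26.9% (25.3 to 28.4) of genes with both marks and in 6.05% (3.91 to 8.86) of genes with H3K4me3 only. GCGCATGC, bound by NRF1, was in 6.01% with both marks, 1.97% with Pol II only, 2.31% with H3K4me3 only, 1.54% with neither and 4.28% of all. GGGCGG, bound by SP1, was in 72.2% with both marks, 43.2% with Pol II only, 66.3% with H3K4me3 only, 27.8% with neither and 58.3% of all. TATAAA was in 5.37% with both marks, 8.11% with Pol II only, 7.69% with H3K4me3 only, 19.8% with neither and 9.75% of all. CCAAT, bound by NF-Y, was in 36.4% of all windows, the AP-1 site TGACTCA in 3.62% and GAGGAAGT, bound by SPI1, in 2.50%, and these 3 were in 37.3%, 2.58% and 2.48% of windows of genes with both marks. A match describes letters in the window and shows no bound factor.

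**Figure D5:**
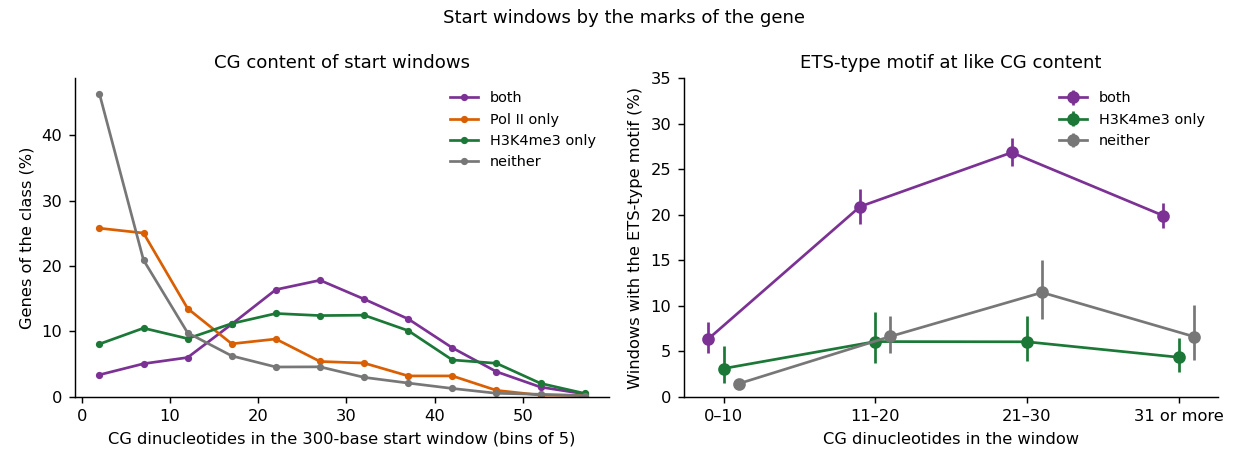
Left, share of the genes of each class (vertical axis, percent) by CG dinucleotides in the 300-base start window (horizontal axis, bins of 5). Right, share of windows with the ETS-type motif (vertical axis, percent) by CG content (horizontal axis), with exact 95% intervals. The both and H3K4me3-only curves lie near each other on the left, while on the right genes with both marks stand at 26.9% and H3K4me3-only genes at 6.05% in the class of 21 to 30 CG.

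Of the 10 widest Pol II peaks, 3 covered microRNA genes. A Pol II peak of 70422 bp on chromosome 22 (46051804 to 46122225) spans MIRLET7BHG with let-7a-3 and let-7b, whose hairpins lie in Pol II but not in H3K4me3, while H3K4me3 covers 35816 bp at the upstream part of the locus. A Pol II peak of 47201 bp on chromosome 13 (91322441 to 91369641) spans MIR17HG, host of the growth-promoting miR-17 to miR-92a cluster, and the HOXA peak spans miR-196b. The hairpins of both loci lie in both marks. Mature sequences of one arm of each, from RefSeq on GRCh38.p14, are shown because several of them share a seed, with the seed, bases 2 to 8, in capitals.
let-7a-5p: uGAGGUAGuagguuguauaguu
let-7b-5p: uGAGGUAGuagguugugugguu
miR-17-5p: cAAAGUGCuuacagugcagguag
miR-20a-5p: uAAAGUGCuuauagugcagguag
miR-18a-5p: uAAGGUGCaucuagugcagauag
miR-19a-3p: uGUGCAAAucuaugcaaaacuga
miR-19b-3p: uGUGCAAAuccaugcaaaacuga
miR-92a-3p: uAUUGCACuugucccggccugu
miR-196b-5p: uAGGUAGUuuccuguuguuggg
let-7a and let-7b share a seed, as do miR-17 and miR-20a, and miR-19a and miR-19b. Of 1562 miRNA hairpins in the table, 167, or 10.7%, lay in both a Pol II and an H3K4me3 peak, 74 in Pol II alone, 79 in H3K4me3 alone and 1242 in neither. Of microRNAs known from myeloid cells, picked for that role after these counts, MIR223, MIR142 and MIR21 lay in both marks, MIR146A in Pol II alone and MIR181A1 in neither.

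Other widest peaks of genes with both marks often ran over several genes. The second widest, 47810 bp on chromosome 17 (81831524 to 81879333), covers ARHGDIA, MCRIP1, PPP1R27 and the protein disulfide isomerase gene P4HB, over which H3K4me3 is divided into peaks of 4927 bp at ARHGDIA, 8702 bp at P4HB and 6998 bp at MCRIP1 and PPP1R27. MDM2, the ubiquitin ligase of p53, and its neighbour CPM shared 46311 bp of Pol II on chromosome 12, with 9111 bp of H3K4me3 at MDM2.

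The classes were largely found again in the knockdown lists, which come from other samples. Genes with both marks had both again in 97.7% (97.4 to 98.0) of cases, genes with Pol II only kept that class in 64.9% (60.7 to 69.0), genes with H3K4me3 only in 68.3% (66.3 to 70.4) and genes with neither in 94.96% (94.4 to 95.5). Of the genes with H3K4me3 only in control cells, 27.9% had both marks in knockdown cells, and 6.68% of those with Pol II only did. Pol II peaks on H3K4me3 met a knockdown Pol II peak in 88.8% of cases and lone Pol II peaks in 40.3%. Over 1000 and up to 2000 bp the shares were 95.6% and 64.3%, so the gap was also there within this width class. It was smaller in wider classes, with 99.4% and 87.9% over 2000 and up to 4000 bp. Above 4000 bp the shares were 99.8% and 97.5%. H3K4me3 peaks on Pol II met a knockdown H3K4me3 peak in 94.5% of cases and lone ones in 75.5%, but over 1000 and up to 2000 bp the shares were 94.1% and 95.7%.

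QKI5-bound RNA came mostly from genes with both marks. A control CLIP peak was assigned to 19.9% (19.1 to 20.6) of genes with both marks, 9.46% (7.13 to 12.3) with Pol II only, 9.29% (8.08 to 10.6) with H3K4me3 only and 4.51% (4.00 to 5.06) with neither, against 13.9% of all. Long genes had CLIP peaks more often in every class. In the longest of 5 length classes the shares were 38.3% (36.3 to 40.3), 29.3% (16.1 to 45.5), 17.5% (14.8 to 20.4) and 15.8% (13.6 to 18.3) in the same order of classes. RNA levels were not analysed here, and their part in these shares was not tested.

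The balance of the marks varied between chromosomes. H3K4me3 peaks lay on Pol II in 54.8% of cases on chromosome 4 and 76.8% on chromosome 19, the lowest and the highest. Pol II peaks lay on H3K4me3 in 40.02% of cases on chromosome 22, the lowest, and 68.3% on chromosome X, while 15 of the 20 on chromosome Y did so.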

How the data were processed

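Each control ChIP list was deposited by the authors as coordinates in BED form with a score of 1 at every peak, with its 2 replicates pooled according to the series' design. HOMER and the build GRCh38.p5 appear in the submitters' processing notes with no role or order. Not given in the sources used here are the aligner, the caller, its settings and how inputs were used. Starts were made 1-based. Gene ends, names and start windows came from RefSeq tables of GRCh38.p14, whose primary chromosomes share coordinates with p5, and strand was known for 15842 genes. For QKI5 CLIP, 82.6% of the deposited control peaks had an identifier matched to a protein-coding symbol. Overlaps, distances and classes were computed in Python 3.11.15 with pandas 2.3.3 and scipy 1.17.1, and the code recovered the known answers of simulated peaks. The members and gene lists were chosen with earlier results of these data known. Genes were named by the 10 widest peaks of each class and, in each list, by a single mark or by up to 4 of the widest Pol II peaks; other genes named were chosen after their values were seen. Alternatives changed the overlap, peak width, gene-end distance, gene set and lists, and annotated starts were added after seeing the data. Knockdown CLIP peaks were not used.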

Additional observations from a re-analysis of the deposited data

How the results depend on the processing

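Of 46 alternatives, 37 left the count within 1.5 times that reported. Asking for overlap of 50% of each peak left 7363 shared pairs, 22.1% of Pol II and 33.5% of H3K4me3 peaks. Narrower Pol II peaks and crossing edges can both fail this rule, and their parts were not separated. The count of genes with Pol II only, 539, moved most. It was 338 with peaks of at least 1000 bp, 266 at the 5′ end alone and 240 at any annotated start, both of 15842 genes with known strand, and 81 of 9007 genes with no other protein-coding gene within 5 kb. Among those 9007 genes, 4067 had both marks, 1203 H3K4me3 only and 3656 neither, or 45.2%, 13.4% and 40.6%, where fewer genes were counted. The annotated starts were chosen after seeing the data. No paired analysis was possible because each list pools both replicates, and for the same reason no replicate could be left out. Depth is unknown, so an absent peak is one not listed, and narrow peaks are the least certain, since 21.8% of the lone Pol II peaks of the narrowest width met a knockdown Pol II peak.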
